A study of Homo sapiens with 6 samples.

Results

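The zinc finger (ZNF) genes of human chromosome 19 were followed in HEC-1-A cells after SMIP34. They were taken as the rows of the count tables whose symbol is ZNF with a number and at most 1 further letter, and whose exons all lie on chromosome 19 of hg19. This pattern found 246 of the 23228 rows, and 171 of them had at least 10 counts in 3 or more libraries. All 171 were among the 13408 genes tested. Of the 75 that fell short, 34 had no read in any library and the highest count anywhere was 12. No gene passed through 1 group only, and 166 of the 171 had 10 counts or more in all 6 libraries.

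ZNF genes encode proteins with arrays of C2H2 zinc fingers, small folds that each grip a few bases of DNA. In many of them a KRAB box at the start of the protein recruits TRIM28, which brings the histone H3K9 methyltransferase SETDB1, and the main known targets of such proteins are transposable elements. The genes arose by repeated tandem duplication, so neighbours are often close copies, and chromosome 19 holds more of them than any other chromosome.

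HEC-1-A is an established line from a human endometrial adenocarcinoma, grown here in McCoy's 5A medium with 10% FBS. SMIP34 is a small-molecule inhibitor of PELP1, a coregulator of nuclear receptors and a part of the Rix1 complex of ribosome assembly. The 3 control libraries came from cells without the inhibitor (vehicle, in the methods of the study) and the 3 SMIP34 libraries from cells given 20 µM for 24 h. The cells are of 1 line, at 1 dose and 1 time. The labels number the libraries without saying that they came from separate cultures, so p-values describe the spread between these libraries. In bulk RNA, a change in the RNA of each cell and a change in the share of cells that carry it cannot be told apart.

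Each library held between 19562711 and 22014835 counts on genes, and the ZNF genes took between 0.259 and 0.267% of them. Epithelial markers (EPCAM, KRT8, KRT18, KRT19, CDH1, PAX8 and MUC1, 7 of 7 tested) summed to 3221 to 3321 CPM (counts scaled to a common library size) in control and 3057 to 3067 CPM with SMIP34. At an adjusted p under 0.05, KRT8, KRT19, PAX8 and MUC1, 4 of the 7, were lower (57.1%, against 17.2% of all genes tested). The 10 markers of leukocytes, endothelium and stroma summed to 5.01 to 6.08 CPM in control and 6.01 to 7.07 CPM with SMIP34. Of these 10, CD3E had no read in any library, 3 passed the filter, and COL1A1 was higher (2.96 CPM in control and 4.19 CPM with SMIP34). The part of these markers in the results was not tested. PELP1 RNA itself was higher with SMIP34, by 0.16 ± 0.035 on the log2 scale (SE, 3 libraries a group, adjusted p = 0.000746).

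At an adjusted p under 0.05, 11 ZNF genes of chromosome 19 were higher with SMIP34 and 9 were lower. These 20 are 11.7% of the 171, while 34.6% of all genes tested were called (17.4% higher and 17.2% lower). Changes were small: none of the 171 also passed the limit of 0.5 on the log2 scale, against 3.31% of all genes. With that limit and an unadjusted p under 0.05 edgeR left 1, ZNF177, limma voom called 1 (ZNF177) and DESeq2 called 0. With 1 library left out, 1 gene was higher past the limit without SMIP34 replicate 1, control replicate 2 or control replicate 3, 2 were higher without SMIP34 replicate 2, and 1 was lower without SMIP34 replicate 3. At any fold change, 6 were higher without SMIP34 replicate 2, 7 without SMIP34 replicate 3, and 5 with DESeq2. With offsets for exon length and GC the balance turned, with 8 higher and 13 lower, and with length offsets alone 8 were higher and 9 lower. Of the 151 that were not called, 128 had a 95% interval around its log2 fold change that lay wholly within 0.5 of 0, so that for them a change past the limit lay outside the interval.

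The median log2 fold change was 0.03 over the 171 and 0.00 over all genes, and 99 of the 171 were above 0 (57.9%, against 49.5% of all genes). Summed over the 171, the level was 2616, 2623 and 2643 CPM in the control libraries and 2640, 2641 and 2656 CPM in the SMIP34 libraries. The groups overlapped in this sum. For single genes, the groups did not overlap for 43 of the 171 (25.1%), against 44.5% of all genes, and all 20 called genes were among the 43.

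ZNF genes were weakly expressed. Their median level was 10.9 CPM against 31.5 CPM over all genes, and the median SE of the log2 fold change was 0.096 against 0.057. Other genes weighted to the same deciles of level were called in 25.1% of cases, and those weighted to the same deciles of exon length in 33.8%. In the decile of level that held most of them (60 genes), 10.0% of ZNF genes and 23.3% of other genes were called. In the next decile up (30 genes), it was 13.3 and 30.9%. The upper deciles held few ZNF genes: 4 of 6 were called in the seventh (66.7%, against 42.3% of other genes), 1 of 1 in the eighth (against 48.2%) and 0 of 1 in the ninth (against 50.5%).

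**Figure D1:**
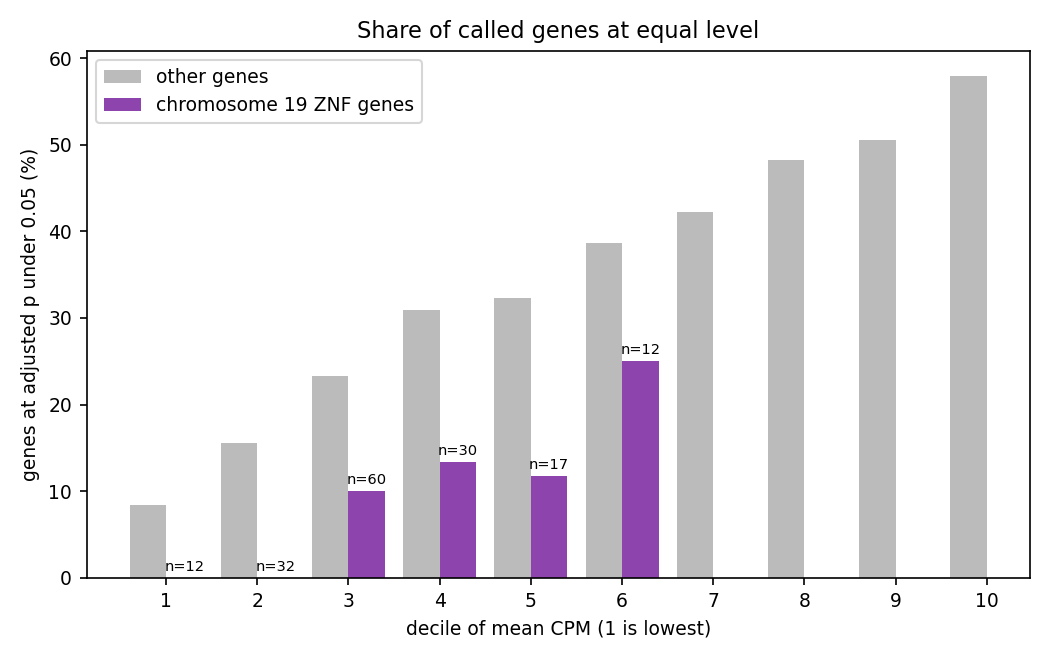
Share of genes at adjusted p under 0.05 (y axis, percent) in each decile of mean CPM (x axis), for chromosome 19 ZNF genes (purple, with their number above the bar) and all other genes tested (grey). Deciles with fewer than 10 ZNF genes have no purple bar. In the 6 deciles with a purple bar the ZNF share is the lower, while in the seventh, which has none, 4 of 6 ZNF genes were called.

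Of the 11 increases, 7 lay in 1 stretch of the long arm. Genes were grouped by position, with a new group wherever the gap to the next ZNF gene reached 1 Mb. The group from ZNF175 to ZNF331 (chr19:52074531-54083523) held 41 of the 246 rows and 26 of the 171 tested genes. In it 7 genes were higher (26.9%, against 17.4% of all genes), none was lower (against 17.2%), and 23 of 26 fold changes were above 0 (against 49.5% of all genes), with a median of 0.14 on the log2 scale. By unadjusted p under 0.05 edgeR also found 0 lower there, and DESeq2 and limma voom called 0 lower. The median of the 26 genes, relative to the control mean, was 0.01, 0.00 and 0.00 in the control libraries and 0.14, 0.14 and 0.19 in the SMIP34 libraries. Control and treated libraries did not overlap in this median. The 3 other genes tested inside the stretch were at a median of -0.03, and none was called.

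**Figure D2:**
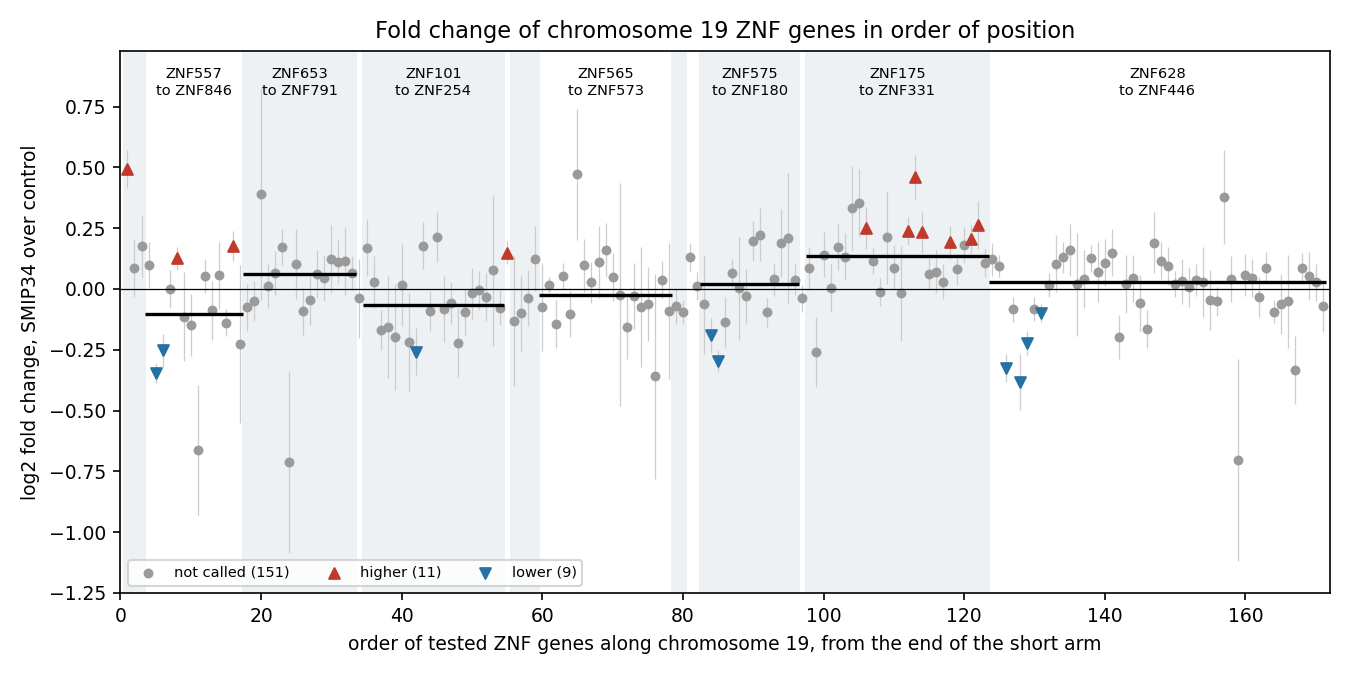
Log2 fold change with its SE (y axis, grey bars) of the 171 tested ZNF genes in their order along chromosome 19 (x axis). Shading alternates between position groups, black lines are medians of groups of 10 or more, named by their first and last tested gene, and triangles are called genes. The group from ZNF175 to ZNF331 has 7 of the 11 increases and a median of 0.14.

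ZNF611 (chr19:53206066-53238307, minus strand) moved most in this stretch. Its level was 9.22, 10.4 and 12.2 CPM in control and 15.1, 14.5 and 14.3 CPM with SMIP34. The groups were clearly apart, at a log2 fold change of 0.46 ± 0.093 (SE, adjusted p = 0.000331), or 37.6% more RNA. ZNF83 (chr19:53115618-53193886), whose protein has fingers but no KRAB pattern, had 36.9, 32.3 and 38.5 CPM in control and 43.7, 41.4 and 41.8 CPM with SMIP34 (0.24 ± 0.056, adjusted p = 0.00165). ZNF761 (chr19:53935227-53961515) had 35.0, 31.3 and 32.9 CPM in control and 36.0, 37.6 and 40.6 CPM with SMIP34, for a log2 fold change of 0.20 ± 0.057 (adjusted p = 0.00614). In both genes the highest control library stayed below the lowest treated library. ZNF761 shares exon positions with LOC147804 on its strand, where reads can be divided.

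The other 4 were nearer to the threshold. ZNF813 (chr19:53970989-53997546) rose from 8.60 ± 0.84 to 10.3 ± 0.40 CPM (SD, n = 3), or 0.26 on the log2 scale (adjusted p = 0.0433). ZNF616 (chr19:52617653-52643191) rose from 11.0 ± 0.23 to 13.1 ± 0.83 CPM (0.25, adjusted p = 0.0266). ZNF600 (chr19:53268748-53290034) went from 11.7 ± 0.24 to 13.8 ± 0.61 CPM (0.23, adjusted p = 0.0311). The intervals of these fold changes overlap widely, so that no order among them can be read. ZNF845 (chr19:53837002-53858122), with 26 fingers, rose from 18.1 ± 0.51 to 20.7 ± 0.71 CPM (0.19, adjusted p = 0.0285). Just outside the threshold, and named after their values were seen, were ZNF841 at 0.35 ± 0.14 (adjusted p = 0.0522, and 0.0236 without control replicate 2) and ZNF765 at 0.18 ± 0.076 (adjusted p = 0.0645). The lowest member of the stretch, ZNF577, had 5.37 ± 0.46 CPM in control and 4.48 ± 0.72 CPM with SMIP34, with overlapping groups (adjusted p = 0.169).

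ZNF611 and ZNF83 kept their call in all 17 other fits. Without SMIP34 replicate 3, ZNF761 was at an adjusted p of 0.0583. ZNF600, ZNF616, ZNF813 and ZNF845 all lost their calls without SMIP34 replicate 2. So did ZNF600, ZNF616 and ZNF813 without SMIP34 replicate 3, ZNF600, ZNF813 and ZNF845 without control replicate 2, ZNF600 and ZNF616 without control replicate 1, ZNF616 without control replicate 3, and ZNF813 without SMIP34 replicate 1, with adjusted p from 0.0529 to 0.22 in these fits. The stretch had 4 higher genes without SMIP34 replicate 2, 3 without SMIP34 replicate 3, and 3 with DESeq2. With offsets for exon length it had 5, where ZNF813 (adjusted p = 0.0811) and ZNF845 (0.075) lost their calls, and with length and GC offsets 5, where the same genes were at 0.108 and 0.107. Of the 7, ZNF83, ZNF600, ZNF761, ZNF813 and ZNF845 had a fractional count in 1 to 3 libraries. A fraction arises where a read was divided among places or genes, and which of these it was is not recorded. Among these genes only ZNF761 shares exon positions with another gene of the annotation.

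The promoters of the 4 called genes of the stretch that hold the run named below are shown. These genes are not all direct neighbours: ZNF28, ZNF468, ZNF160, ZNF525 and ZNF765, none of them called, lie among them. ZNF600, which was called higher but had no matched promoter, also lies among them. RefSeq promoter sequences matched 151 of the 171 genes by symbol, and the 250 bases before each start were used. Printed 5′ to 3′, capitals mark CCCAGGCCTGGCTT, the run of 14 bases held by the largest number of promoters of the stretch, found by searching them:
ZNF611 (GRCh38.p14, chr19:52735045-52735294, minus strand): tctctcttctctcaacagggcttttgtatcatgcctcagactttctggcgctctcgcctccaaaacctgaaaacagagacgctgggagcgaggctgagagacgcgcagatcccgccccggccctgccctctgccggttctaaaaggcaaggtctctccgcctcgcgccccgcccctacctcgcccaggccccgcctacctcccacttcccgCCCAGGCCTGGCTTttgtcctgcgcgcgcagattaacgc
ZNF845 (GRCh38.p14, chr19:53333499-53333748, plus strand): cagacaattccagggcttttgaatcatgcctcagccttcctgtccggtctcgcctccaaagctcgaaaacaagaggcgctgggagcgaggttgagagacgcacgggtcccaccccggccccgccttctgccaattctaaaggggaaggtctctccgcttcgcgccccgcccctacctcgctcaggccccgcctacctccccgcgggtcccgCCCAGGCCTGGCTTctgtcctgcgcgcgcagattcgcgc
ZNF761 (GRCh38.p14, chr19:53431734-53431983, plus strand): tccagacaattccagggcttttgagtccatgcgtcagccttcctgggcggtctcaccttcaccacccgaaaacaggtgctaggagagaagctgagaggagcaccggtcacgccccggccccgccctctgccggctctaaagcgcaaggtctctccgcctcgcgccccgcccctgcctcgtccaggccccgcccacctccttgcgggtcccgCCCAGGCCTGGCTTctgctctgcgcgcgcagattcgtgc
ZNF813 (GRCh38.p14, chr19:53467483-53467732, plus strand): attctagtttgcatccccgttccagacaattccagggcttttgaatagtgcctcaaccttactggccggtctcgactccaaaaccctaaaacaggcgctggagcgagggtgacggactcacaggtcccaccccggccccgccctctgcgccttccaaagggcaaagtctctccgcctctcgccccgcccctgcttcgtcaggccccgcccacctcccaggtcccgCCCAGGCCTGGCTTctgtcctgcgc
The run lies in 8 of the 21 promoters of the stretch, in no other of the 151 ZNF promoters, and in 10 of all 27305 promoters (either strand). It begins 39 bases before the start in 6 of the 8. The 8 genes with it (ZNF808, ZNF701, ZNF611, ZNF845, ZNF525, ZNF765, ZNF761 and ZNF813) had log2 fold changes from 0.08 to 0.46 with a median of 0.20, and 4 were called. The 13 without it had a median of 0.12 and 2 were called. All these calls were increases, found in 26.9% of the tested genes of the stretch and 17.4% of all genes. A link between the run and the fold changes was not tested. Between the 6 promoters of called genes of the stretch, aligned end to end, identity ranged from 55.1 to 83.7% over 15 pairs. ZNF616 was the least like the rest, at up to 57.7%. By comparison, the 6 pairs among ZNF554, ZNF358, ZNF428 and ZNF784, from other places, had 51.0 to 55.4%.

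The other 4 increases lay outside this stretch, and ZNF317 and ZNF562 were in 1 position group. ZNF554 (chr19:2819872-2836733), the first ZNF gene of the short arm, had the largest increase of all 171 that passed the test. It had 13.2, 13.9 and 12.8 CPM in control and 18.2, 18.2 and 19.9 CPM with SMIP34. All 3 treated libraries were above all controls, at 0.49 ± 0.077 on the log2 scale (adjusted p = 1.37e-05), with a 95% interval from 0.34 to 0.65. It was called in all 17 other fits. Its neighbours in the group, 2 tested genes, were not called.

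ZNF507 (chr19:32836514-32878573), which stands alone between clusters and has no KRAB pattern, had 43.0, 41.7 and 42.2 CPM in control and 46.7, 47.9 and 46.2 CPM with SMIP34. The libraries of each group lay close together, at 0.15 ± 0.046 (adjusted p = 0.0123). On the short arm, ZNF562 (chr19:9759338-9785776) rose from 25.3 ± 1.9 to 28.6 ± 0.92 CPM (0.18, adjusted p = 0.0296). ZNF317 (chr19:9251056-9274091) rose from 45.6 ± 0.64 to 49.7 ± 2.6 CPM (0.13, adjusted p = 0.041) and is named after its values were seen. These 3 were not called with offsets for exon length (adjusted p = 0.109 for ZNF317, 0.235 for ZNF507 and 0.0964 for ZNF562). Without SMIP34 replicate 2 ZNF507 was at 0.0584, and ZNF562 was at 0.0657 to 0.176 without SMIP34 replicate 1, SMIP34 replicate 2 or control replicate 1. ZNF317 was called in 1 of the 6 fits that leave out a library, the one without SMIP34 replicate 3, and at 0.058 to 0.184 in the rest.

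**Figure D3:**
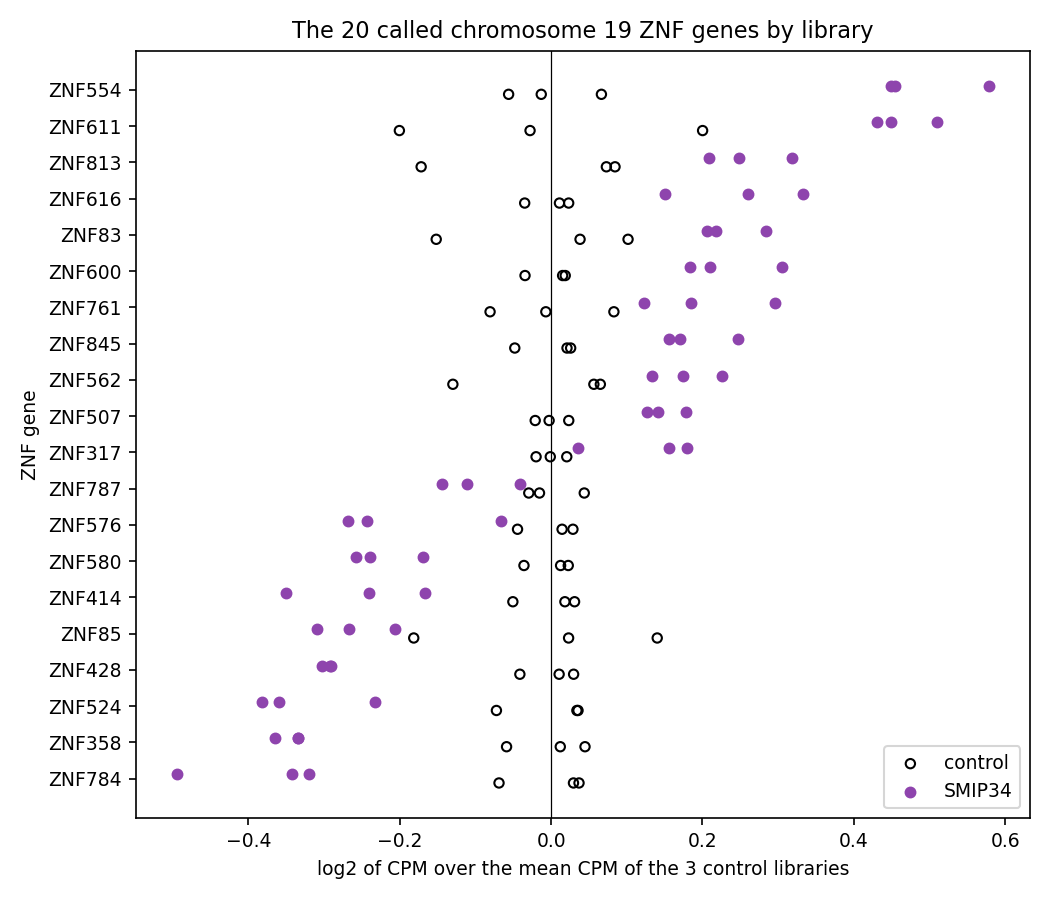
Level of the 20 called ZNF genes (rows) in each library, as the log2 of its CPM over the mean CPM of the 3 control libraries (x axis). Open circles are control and filled circles SMIP34 libraries. For each of the 20 genes the groups do not overlap, and the fold changes run from -0.38 (ZNF784) to 0.49 (ZNF554).

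The decreases fell on short, GC-rich genes. Of the 9 lower genes, 8 have no KRAB pattern and 7 have exons with more than 60% GC. ZNF358 (chr19:7581004-7585911) had 63.3, 68.0 and 66.4 CPM in control and 51.2, 52.2 and 52.2 CPM with SMIP34. Control and treated libraries were far apart, at -0.35 ± 0.042 (adjusted p = 4.31e-07), or 21.3% less RNA. ZNF428 (chr19:44111376-44124014), with a single finger match, had 53.8, 53.1 and 51.2 CPM in control and 42.7, 43.0 and 43.0 CPM with SMIP34 (-0.30 ± 0.045, adjusted p = 1.02e-05). It lies across SRRM5 on the opposite strand, and the reads were counted by strand.

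ZNF524 (chr19:56111730-56114504), a protein that binds telomere repeats, had 32.1, 34.6 and 34.5 CPM in control and 26.3, 25.9 and 28.7 CPM with SMIP34 (-0.33 ± 0.058, adjusted p = 8.44e-05). ZNF580 (chr19:56152392-56154836) fell from 41.3 ± 0.89 to 35.5 ± 1.1 CPM (-0.22, adjusted p = 0.000966). ZNF784 (chr19:56132107-56135941), which lies between them, fell from 7.62 ± 0.31 to 5.84 ± 0.38 CPM, the largest decrease that passed the test (-0.38, adjusted p = 0.0108). All 3 sit within a short piece of the last position group, from ZNF628 to ZNF446, but not as an unbroken run: ZNF865 (chr19:56124959-56129907), between ZNF524 and ZNF784, was at -0.08 ± 0.052 with overlapping groups (adjusted p = 0.232). The next gene along, ZNF581, did not pass, with 45.5 ± 2.0 CPM in control, 43.0 ± 1.8 CPM with SMIP34 and overlapping groups (adjusted p = 0.201).

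ZNF414 (chr19:8575462-8579048) fell from 22.9 ± 0.69 to 19.2 ± 1.2 CPM (-0.25, adjusted p = 0.00476). ZNF787 (chr19:56598732-56632649), the most abundant of the 171 per length, had 86.4, 87.2 and 90.9 CPM in control and 81.7, 85.7 and 79.8 CPM with SMIP34. Its groups are barely apart, at -0.10 ± 0.038 (adjusted p = 0.0473). ZNF576 (chr19:44100544-44104587), at 54.0% GC, fell from 20.2 ± 0.54 to 17.7 ± 1.4 CPM (-0.19, adjusted p = 0.041). ZNF85 (chr19:21106059-21133503) was the only lower gene with a KRAB pattern and the only called gene among 20 tested in the group from ZNF101 to ZNF254. It had 12.6, 11.6 and 10.1 CPM in control and 9.89, 9.20 and 9.48 CPM with SMIP34, so that the lowest control library lay just above the highest treated library (-0.26 ± 0.098, adjusted p = 0.0426).

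ZNF358, ZNF414, ZNF428, ZNF524 and ZNF580 were called in all 17 other fits. Without SMIP34 replicate 3, ZNF784 was at 0.0534. ZNF576 (adjusted p from 0.0951 to 0.164), ZNF787 (0.0533 to 0.206) and ZNF85 (0.0562 to 0.206) lost their calls in 4 or 5 of the 6 fits that leave out a library: all 3 without SMIP34 replicate 1, SMIP34 replicate 3, control replicate 1 or control replicate 2, and besides these ZNF85 without SMIP34 replicate 2 and ZNF787 without control replicate 3. With exon length offsets ZNF576 was at 0.126 and ZNF787 at 0.337, with length and GC offsets at 0.173 and 0.0646, and with DESeq2 at 0.113 and 0.111, so neither was called in these fits. ZNF85 was not called with DESeq2 (0.108).

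Exon GC above 60% was rare among the 171 (19 genes), whose median was 43.1% against 49.5% over all genes. Of the 19, 7 were lower and none was higher (36.8% lower), and among other genes of that GC content 24.5% were lower and 11.0% higher. Where such exons summed to less than 2000 bases, 7 of 10 ZNF genes and 32.0% of 869 other genes were lower. Medians were -0.24 and -0.10. The 9 GC-rich ZNF genes of 2000 bases or more had a median of 0.02 and none was called. These limits were set with results of these data known. The limit on length falls between ZNF784 (1996 bases, called lower) and ZNF444 (2043 bases, not called). The contrast between the 10 and the 9 genes depends on that placement and was not tested. With offsets for exon length and GC content, 6 of the 19 were still lower and 1 was higher.

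**Figure D4:**
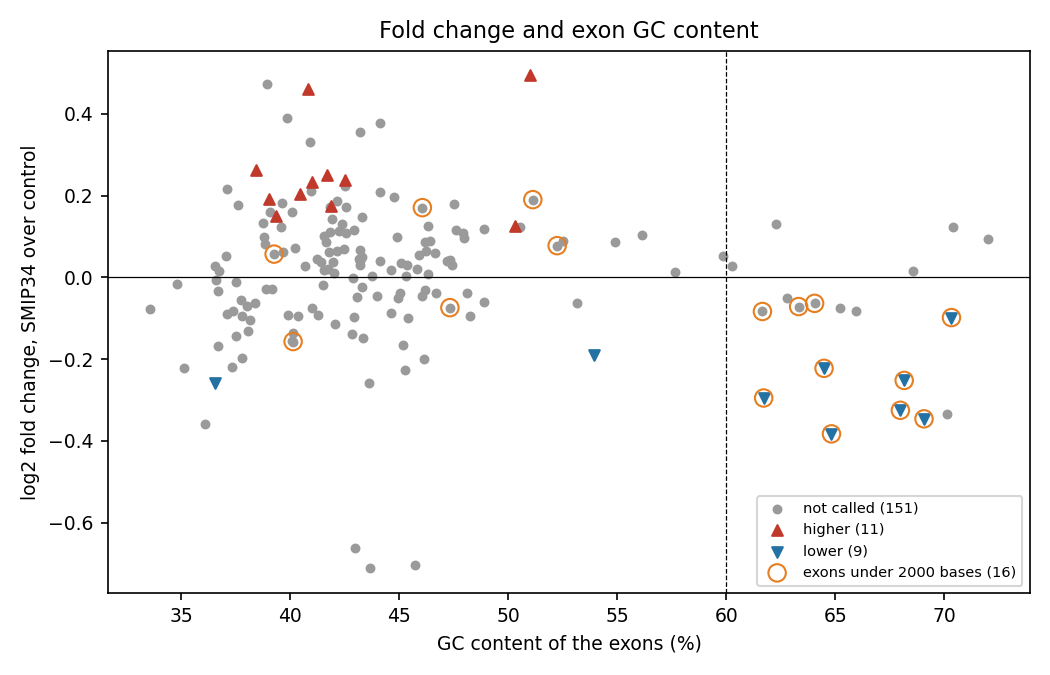
Log2 fold change (y axis) of the 171 ZNF genes against the GC content of their exons (x axis, percent). Triangles are called genes, circles in orange mark the 16 with exons under 2000 bases in sum, and the dashed line is 60%. The 7 lower genes right of the line are all short.

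Over all genes tested, log2 fold change rose with exon length (Spearman's rho of 0.29 across 13408 genes, which share the same 6 libraries). Across the 171 ZNF genes rho was 0.18 with length, 0.26 with the number of fingers (167 genes with a reference protein) and -0.06 with exon GC. Without the 7 GC-rich called genes, rho with length was 0.09. These 7 were picked by their calls and are all short and lower, so leaving them out lowers rho by itself. In the 2 shortest deciles of length, 4 of 10 ZNF genes were lower and none was higher, where of other genes 32.8 and 27.9% were lower and 4.10 and 6.15% higher. In the longest decile (11 genes), the median was -0.06 for ZNF genes and 0.12 for other genes, and 1 of 11 against 39.9% were higher.

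**Figure D5:**
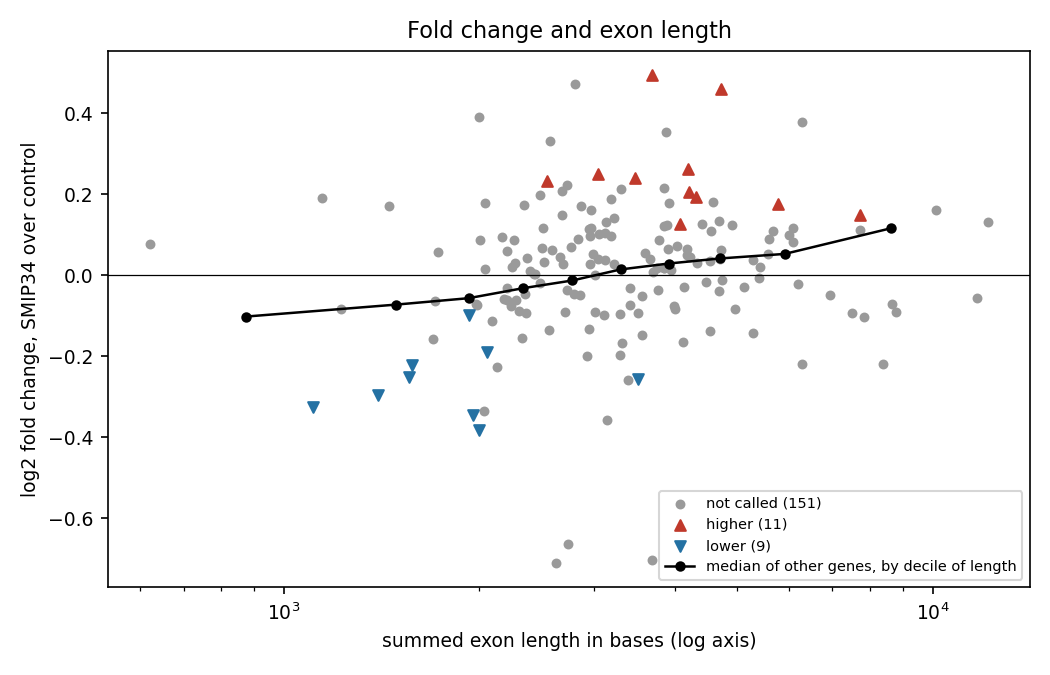
Log2 fold change (y axis) against summed exon length in bases (x axis, log scale) for the 171 ZNF genes, with called genes as triangles. The black line joins the medians of all other genes in deciles of length, from -0.10 in the shortest to 0.12 in the longest.

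Proteins translated from the reference annotation were searched for fingers and for a KRAB pattern, which misses divergent KRAB boxes such as that of ZNF224. The pattern was found in 122 genes, with 9 higher (7.38%, against 17.4% of all genes), 1 lower (0.82%) and a median of 0.04. Of the 45 without it, 2 were higher and 8 lower (17.8%, near the 17.2% of all genes that were lower), with a median of -0.03. The pattern matched 1 of the 14 tested genes from ZNF575 to ZNF296, the group of ZNF224. The 45 are thus genes without the pattern, and some can carry a KRAB box. Genes of 5 fingers or fewer had a median of -0.14 (10 genes, 5 lower), and those of 16 or more had 0.06 (38 genes, 4 higher and none lower). The 10 had a median exon GC of 63.9% and a median exon length of 1775.5 bases, so they overlap with the short, GC-rich genes above. Of the 19 genes above 60% exon GC, 1 had the KRAB pattern. The parts of fingers, KRAB pattern, length and GC were not separated.

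Of 14 genes listed for functions other than repression of transposable elements, 13 were tested and 1, ZNF507, passed. By comparison, 11.7% of the 171 and 34.6% of all genes were called. ZNF507 lost its call with exon length offsets. ZNF274, which recruits SETDB1 to the 3′ ends of other ZNF genes, had 24.4, 21.6 and 24.7 CPM in control and 24.5, 24.7 and 25.8 CPM with SMIP34, at 0.09 ± 0.065 (adjusted p = 0.313). ZNF91, a repressor of SVA and L1 elements with 31 fingers, the most of the 171, had 16.6, 16.5 and 15.9 CPM in control and 17.4, 14.4 and 17.1 CPM with SMIP34. Its interval ran from -0.17 to 0.16, and its groups overlapped. ZNF224, a repressor of the aldolase A gene, had 13.4, 16.3 and 14.5 CPM in control and 16.5, 16.5 and 17.9 CPM with SMIP34 (0.20 ± 0.081, adjusted p = 0.0599). ZNF224 was called in 5 of the 17 other fits: without control replicate 2 (0.02), with exon length offsets (0.0275), with length and GC offsets (0.0453), with library size scaling and with the legacy method.

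ZNF304, which brings corepressors to the INK4-ARF locus, was at 27.6 ± 1.0 CPM in control and 30.2 ± 1.0 CPM with SMIP34 (adjusted p = 0.0899), and the groups did not overlap. The imprinted ZNF331 was at 26.5 ± 0.55 and 28.5 ± 1.3 CPM (adjusted p = 0.158). For ZNF350, a partner of BRCA1, the values were 9.94 ± 0.72 and 11.2 ± 0.88 CPM (adjusted p = 0.171). ZNF420, an inhibitor of p53, was at 7.41 ± 0.84 and 8.31 ± 0.45 CPM (adjusted p = 0.283). ZNF473, which acts with the U7 snRNP in histone mRNA processing, was at 36.3 ± 2.4 and 35.3 ± 0.58 CPM (adjusted p = 0.627). ZNF675, an inhibitor of TRAF6 signalling, was at 10.7 ± 1.1 and 10.5 ± 0.72 CPM (adjusted p = 0.83), and ZNF383 at 5.75 ± 0.53 and 5.17 ± 0.53 CPM (adjusted p = 0.387). ZNF536, a regulator of neuron differentiation, had no read in any library.

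By level per length, the 171 ranged from 0.0715 to 44.2 RPKM (CPM per kilobase of exon). The most abundant were ZNF787 at 44.2, ZNF581 at 36.1, ZNF428 at 34.3, ZNF358 at 30.2 and ZNF146 at 30.1 RPKM. Of these 5, 3 were lower and none was higher, where of all genes 17.2% were lower and 17.4% higher. A link between level and direction was not tested. ZNF146, which consists almost wholly of fingers, is the one of them with AT-rich exons (41.5% GC). It had 116, 113 and 117 CPM in control and 117, 114 and 119 CPM with SMIP34, and its interval from -0.05 to 0.09 was the narrowest of the 171.

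The 3 largest fold changes by size belonged to genes with few reads and did not pass. ZNF763 had 0.979, 0.92 and 0.529 CPM in control and 0.456, 0.601 and 0.416 CPM with SMIP34 (-0.71 ± 0.38, adjusted p = 0.147). ZNF418 had 0.412, 0.782 and 0.818 CPM in control and 0.319, 0.324 and 0.601 CPM with SMIP34 (-0.70 ± 0.42, adjusted p = 0.201). In both the groups overlapped. ZNF177 had 1.73 ± 0.16 CPM in control and 1.09 ± 0.40 CPM with SMIP34, and its groups did not overlap (-0.66 ± 0.27, adjusted p = 0.0555), and was at 0.0163 without SMIP34 replicate 3. It shares exons with the readthrough row ZNF559-ZNF177, which was at -0.54 ± 0.21 (adjusted p = 0.0429, and 0.103 to 0.184 without SMIP34 replicate 1, SMIP34 replicate 2, control replicate 1 or control replicate 2). Reads of these rows cannot be assigned to either with certainty. On the positive side, ZNF382, a growth suppressor, was at 0.47 ± 0.27 (1.08 ± 0.19 and 1.5 ± 0.32 CPM, adjusted p = 0.183), ZNF833P at 0.39 (adjusted p = 0.53) and ZNF814 at 0.38 (adjusted p = 0.137, and 0.0489 without SMIP34 replicate 2). ZNF781 was at -0.36 (adjusted p = 0.555).

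In the remaining position groups of 10 or more tested genes, from 0 to 28.6% passed, against 34.6% of all genes. From ZNF557 to ZNF846 on the short arm 2 of 14 were higher and 2 lower (28.6%), with a median of -0.10. From ZNF653 to ZNF791 none of 16 was called at a median of 0.06, and from ZNF565 to ZNF573 none of 19 at -0.02. In the group from ZNF101 to ZNF254, 1 of 20 was lower, with a median of -0.07, and its highest gene, ZNF431, was at 0.22 (adjusted p = 0.105). Genes from ZNF575 to ZNF296 had 2 of 14 lower at a median of 0.02, and their highest, ZNF225, was at 0.22 (adjusted p = 0.111). The largest group, from ZNF628 to ZNF446, had 4 of 48 lower at a median of 0.03, and ended with ZNF446 at -0.07 (adjusted p = 0.645).

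The promoters of lower genes and of ZNF554 are shown with the GC box GGGCGG (either strand) in capitals, since among the called genes ZNF358, ZNF428 and ZNF784 had large decreases and ZNF554 the largest increase:
ZNF554 (GRCh38.p14, chr19:2819618-2819867, plus strand): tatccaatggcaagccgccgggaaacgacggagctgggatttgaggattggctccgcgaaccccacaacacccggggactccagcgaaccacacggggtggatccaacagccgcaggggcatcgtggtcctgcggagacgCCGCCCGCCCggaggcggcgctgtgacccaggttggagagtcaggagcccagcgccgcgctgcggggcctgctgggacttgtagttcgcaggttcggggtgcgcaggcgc
ZNF358 (GRCh38.p14, chr19:7515853-7516102, plus strand): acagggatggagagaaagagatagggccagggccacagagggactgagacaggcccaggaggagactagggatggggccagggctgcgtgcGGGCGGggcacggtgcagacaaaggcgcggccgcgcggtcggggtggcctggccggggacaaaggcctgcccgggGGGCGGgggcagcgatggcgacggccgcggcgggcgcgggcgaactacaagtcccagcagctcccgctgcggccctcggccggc
ZNF428 (GRCh38.p14, chr19:43619630-43619879, minus strand): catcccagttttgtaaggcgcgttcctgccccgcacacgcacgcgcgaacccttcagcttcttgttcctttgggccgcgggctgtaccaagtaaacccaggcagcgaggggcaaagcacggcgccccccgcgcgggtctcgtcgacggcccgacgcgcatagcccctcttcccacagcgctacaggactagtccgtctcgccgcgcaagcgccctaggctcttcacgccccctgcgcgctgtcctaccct
ZNF784 (GRCh38.p14, chr19:55624567-55624816, minus strand): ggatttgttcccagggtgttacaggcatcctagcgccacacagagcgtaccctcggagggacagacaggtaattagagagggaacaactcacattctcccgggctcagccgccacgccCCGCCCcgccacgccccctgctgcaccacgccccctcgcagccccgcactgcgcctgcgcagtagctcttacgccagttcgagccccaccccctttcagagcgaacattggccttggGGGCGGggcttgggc
GGGCGG was found in 62.3% of the 151 ZNF promoters and 42.3% of all 27305. It lay in 10 of the 10 promoters of higher genes and 6 of the 8 of lower genes that could be matched. Of those 10, 6 are the promoters from ZNF175 to ZNF331 compared above, with up to 83.7% identity. Median promoter GC was 66.6% for higher and for lower genes, 60.4% for the 151 and 58.0% for all. The CCAAT letters, on either strand, were in 50.3% of ZNF promoters and 33.0% of all, but in 4 of the 21 from ZNF175 to ZNF331. CCGGAAG, the core bound by ETS factors, was in 30.5% of ZNF promoters against 8.82% of all, with 2 of the 21 in that stretch and 5 of the 18 GC-rich genes. ACTACATT, found by searching the ZNF promoters, was in 25 of 151 (16.6%) and 0.956% of all, with 1 of the 21 in that stretch. None of these motifs contains another, and a match describes the sequence only.

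Genes that work with KRAB proteins were expressed. Of 26 corepressor and heterochromatin genes, all 26 were tested, and 8 were higher and 2 lower (38.5% called, near the 34.6% of all genes), with a median of 0.06. TRIM28 was at 559 CPM in control and 585 CPM with SMIP34, or 0.07 ± 0.026 on the log2 scale (adjusted p = 0.057, 0.00792 without SMIP34 replicate 3 and 0.045 without control replicate 3). TRIM28 was also called with limma voom, library size scaling, exon length offsets, and length and GC offsets (adjusted p from 0.00265 to 0.0473). SETDB1 was at 32.2 and 30.0 CPM (-0.10 ± 0.068, adjusted p = 0.253, and 0.0482 without SMIP34 replicate 2). CHD4, the ATPase of the NuRD complex, had the largest increase, from 238 to 303 CPM (0.35 ± 0.031, adjusted p = 1.33e-09). DAXX, a chaperone of histone H3.3, had the lowest value at -0.22 ± 0.16 (adjusted p = 0.295), and is annotated at several places, among which reads can be divided.

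ZNF genes elsewhere and other genes of the chromosome were compared by their counts. Of all genes tested, 34.6% were called, 17.4% higher and 17.2% lower. Of 231 tested ZNF genes on other chromosomes, 33 were higher and 13 lower (19.9% called), with a median of 0.00. Of 788 other genes of chromosome 19, 100 were higher and 193 lower (37.2% called), with a median of -0.04. Of 21 zinc finger genes of chromosome 19 under other symbols, 9 were tested, with 1 higher and 1 lower (22.2% called). In all, 1 of them was called without SMIP34 replicate 1, SMIP34 replicate 2, control replicate 1 or control replicate 2. The difference between these shares and the 11.7% of the 171, or the 34.6% of all genes, was not tested.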

How the data were processed

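RNA from 6 libraries of HEC-1-A cells (3 control, 3 SMIP34) was analysed, and no library was left out. The files hold estimated counts, since a read could be divided among genes, which the authors deposited without normalization. Per the file headers, featureCounts 1.5.0-p1 summed reads over the exons of the UCSC hg19 annotation by strand, at a mapping quality of at least 2, and divided reads that fit several places or genes. The submitters' processing notes name bcl2fastq, HISAT2 and SAMtools, while the methods of the study name tophat2 and HTSeq, and the labels name library kits of different makers. Fractional values made up 6.31 to 7.43% of each file, and counts of close copies are uncertain.

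Counts were rounded, filtered with filterByExpr, scaled by TMM and tested with the quasi-likelihood method of edgeR 4.0.16 (R 4.3.3, legacy method off), with Benjamini-Hochberg adjustment over 13408 genes. The 34.6% of genes called across the whole table serve as the background. The SE comes from the F statistic. Groups within the ZNF genes, set by position, GC content, length, protein pattern or promoter letters, are described by counts and medians without a test. Exon GC was read from GRCh37, and proteins of at least 150 residues were translated from GENCODE release 44 mapped to GRCh37 (167 of the 171 genes). Promoters are from RefSeq on GRCh38.p14.

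The ZNF genes, the lists and the rules were chosen with earlier results of these data known. Genes were named by rule: the 8 largest increases and 8 largest decreases that passed with no overlap between the groups and a mean of at least 1 CPM, the 5 highest RPKM, the first and last gene, the extremes of each large position group, genes with known functions, 4 corepressor genes and PELP1. ZNF317, ZNF841, ZNF765, ZNF559-ZNF177 and members of promoter groups were added after their values were seen.

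Alternatives were DESeq2 1.42.0, limma voom 3.58.1, the legacy method, 3 other scalings, 2 other filters, loess offsets (span 0.3) on exon length or on length and GC, the replicate number as a block, genes with whole-number counts only, and leaving out each library. Libraries with the same replicate number deviated with correlations of -0.028, 0.033 and -0.011, so no pairing was assumed. The tests were tested on simulated data. Figures were drawn with matplotlib 3.10.9.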

Additional observations from a re-analysis of the deposited data

How the results depend on the processing

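The counts of chromosome 19 ZNF genes that passed the test moved with the processing, while the direction of every called gene held in all 17 fits. With DESeq2 5 were higher, and among genes with whole-number counts only it was 4, since fewer genes were read. The count of higher genes lay between 6 and 10 with 1 library left out, at its lowest without SMIP34 replicate 2, and between 4 and 16 in the other fits. The count of lower genes lay between 6 and 10 with 1 library left out and between 6 and 13 in the other fits, at its highest with length and GC offsets, where 8 were higher. Past the fold limit, library size scaling gave 1 higher gene, limma voom and upper quartile scaling each gave 1 lower gene, and leaving out a library gave 0 to 2 higher and 0 to 1 lower. The median log2 fold change was 0.0063 with length and GC offsets, 0.017 with length offsets, 0.047 with library size scaling and 0.015 with upper quartile scaling, and from 0.022 to 0.030 with 1 library left out. From ZNF175 to ZNF331, DESeq2 called 3 higher genes, and leaving out a library 3 to 6. Of the zinc finger genes under other symbols, DESeq2 and the legacy method each called 1, and leaving out a library 1 to 2. The cause of these differences was not tested, apart from the smaller set of whole-number genes. With the replicate block 11 were higher and 8 lower, and ZNF787 lost its call there. It changed no other call of a named gene.

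Values close to 0 turned sign in 10 of 867 fits of named genes. ZNF146 was at -0.017 and ZNF581 at 0.015 with length and GC offsets. ZNF473 was at 0.0063 without control replicate 3, and down to -0.086 with another library left out. ZNF675 was at 0.00898 with length offsets, 0.019 without SMIP34 replicate 3 and 0.03 without control replicate 3, in a range from -0.11 to 0.03. ZNF91 was at 0.013 with library size scaling, 0.075 without SMIP34 replicate 2, 0.0074 without control replicate 1 and 0.0032 without control replicate 2, in a range from -0.056 to 0.075 with a library left out and down to -0.095 with length and GC offsets. None of these passed the test. Of the others, 759 kept their side of the threshold, 78 lost a call and 20 gained one. The alternatives for groups within the ZNF genes, and for genes of other lists, were chosen after seeing the data. At 3 libraries a group, and a median of 10.9 CPM, the SE was about 0.096 on the log2 scale, and changes well above it can be missed. ZNF431 and ZNF225, both at 0.22, were not called by edgeR (adjusted p = 0.105 and 0.111).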
